A study of Mus musculus with 16 samples.

Results

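Arginine and polyamine metabolism was followed with 9 genes through neural tube organoids sorted by FOXA2 level: the arginases Arg1 and Arg2, the biosynthetic enzymes Odc1, Amd1, Srm and Sms, the ornithine-consuming enzyme Oat, the polyamine acetylase Sat1 and the antizyme inhibitor Azin1. They are 9 of the 35976 genes in the deposited table, listed by name and chosen by their place in the pathway with measured CPM across the gates already known, Arg1 being among the genes that changed most, so their levels across the gates are given as a description, without p-values. Of the 9, 8 passed the filter on low counts and Arg2 did not. The organoids were made from R1, a single line of mouse embryonic stem cells carrying a FOXA2-Venus reporter, were treated with retinoic acid for 18 hours and were collected on day 4. The Negative, Low, Medium and High gates of FOXA2 level had 4 libraries each, and the line, the reporter and the retinoic acid were common to all 16, so no gate is an untreated or reporter-free control. The labels do not say whether the numbered libraries came from separate cultures, and the spread behind each p-value below, that between libraries of a gate, may in part be technical.

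Arginases split arginine into urea and ornithine, arginase 1 in the cytosol and arginase 2 in mitochondria. Ornithine is either decarboxylated to putrescine by ornithine decarboxylase (Odc1), which opens polyamine synthesis, or passed by ornithine aminotransferase (Oat) toward proline and glutamate. Spermidine synthase (Srm) and spermine synthase (Sms) then add aminopropyl groups supplied by S-adenosylmethionine decarboxylase (Amd1). Polyamines bind nucleic acids and are needed for growth and translation.

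Levels are CPM, each gene's counts scaled to the size of its library. Depth ran from 3268948 to 9961032 counts per library, and the High gate held the shallowest libraries, High 4 with 3268948 and High 2 with 3998294 counts. Foxa2 itself, which set the gates, was at 2.91 ± 1.68 CPM in Negative, 11.9 ± 3.02 in Low, 52.0 ± 9.36 in Medium and 113 ± 18.2 in High (SD, n = 4). Markers of the labelled neural tissue were present, with Pax6 at 95.4 CPM in Negative and 23.7 in High, while Sox1 and Sox2 were listed at 0 in all 16 libraries. Whether their RNA was absent or their reads were not assigned in the counting was not tested. The floor plate transcription factor gene Ferd3l had 0 counts in total.

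RefSeq promoter windows (GRCm38.p6) were found for 5 of the 9 genes, Odc1, Amd1, Sms, Oat and Sat1. The windows of the 3 biosynthetic genes among them, Odc1, Amd1 and Sms, are shown 5′ to 3′ up to the annotated start. Both Sms windows are given, since it has 2 annotated starts. Capitals mark the E-box CACGTG, the letters bound by MYC-family factors. The Sms windows lie at chrX:157492288-157492537 and chrX:157491373-157491618, the Odc1 window at chr12:17544623-17544793 and the Amd1 window at chr10:40302189-40302438, with Odc1 on the plus strand and the others on the minus strand.
Sms: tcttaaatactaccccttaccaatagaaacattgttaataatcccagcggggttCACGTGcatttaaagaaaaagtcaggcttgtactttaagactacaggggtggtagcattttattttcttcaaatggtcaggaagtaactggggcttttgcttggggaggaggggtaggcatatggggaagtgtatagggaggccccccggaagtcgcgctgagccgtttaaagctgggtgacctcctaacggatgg
Sms downstream start: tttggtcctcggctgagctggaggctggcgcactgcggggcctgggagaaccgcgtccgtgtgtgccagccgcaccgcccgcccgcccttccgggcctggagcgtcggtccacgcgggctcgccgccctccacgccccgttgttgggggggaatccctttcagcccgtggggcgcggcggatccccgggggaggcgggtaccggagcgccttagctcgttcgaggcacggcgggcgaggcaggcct
Odc1: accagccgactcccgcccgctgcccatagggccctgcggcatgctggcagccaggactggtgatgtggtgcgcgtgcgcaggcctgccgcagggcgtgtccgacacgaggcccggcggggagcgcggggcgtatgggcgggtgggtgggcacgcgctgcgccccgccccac
Amd1: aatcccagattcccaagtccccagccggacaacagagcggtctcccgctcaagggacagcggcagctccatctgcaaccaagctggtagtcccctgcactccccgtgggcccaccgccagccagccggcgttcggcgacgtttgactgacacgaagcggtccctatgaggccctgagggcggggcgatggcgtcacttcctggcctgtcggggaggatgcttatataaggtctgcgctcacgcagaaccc
The E-box in the first Sms window starts 196 bases before the annotated start. It was the only exact match among the 6 member windows, and the window of the downstream Sms start held none. Counts from the 3′ end do not show which Sms start was used. A link between this E-box and the level of Sms was not tested. The motifs searched were the E-box CACGTG, the TATA letters TATAAA and the forkhead letters TGTTTAC, each on both strands, with no overlap between them. Only these exact letters were counted, so a near form such as tatataag, present in the Amd1 window, was not. Over all 32851 RefSeq windows of 250 bases, 6.02% held CACGTG, 12.4% TATAAA and 3.17% TGTTTAC. The Odc1 window was shortened to 171 bases, where GENCODE M21 places its first exon.

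The mean of Arg1 was higher at every step in FOXA2. The step from Medium to High was the smallest on the log2 scale and is not among the edgeR calls given below. The gene lies on chromosome 10 at 24915221 to 24927484, minus strand (GRCm38). Its level was 8.26, 3.13, 3.09 and 5.12 CPM in the Negative libraries 1 to 4, and 21.7, 14.3, 21.3 and 17.7 in the Low ones. It was 53.9, 32.8, 56.2 and 49.4 CPM in Medium and 72.2, 59.7, 76.3 and 62.4 in High. No gate's range overlapped that of another, so all 16 libraries fell in the order of the gates, although Medium 2 lay well under the other Medium libraries.

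The mean of Arg1 went from 4.9 ± 2.43 CPM in Negative to 18.7 ± 3.46 in Low, 48.1 ± 10.6 in Medium and 67.6 ± 7.88 in High (SD, n = 4), 13.8 times as much in High as in Negative. On the log2 scale the difference was 1.92 (SE 0.239) for Low versus Negative, 1.35 (SE 0.203) for Medium versus Low and 0.50 (SE 0.193) for High versus Medium. It was 3.27 (SE 0.234) for Medium versus Negative, 3.77 (SE 0.235) for High versus Negative and 1.85 (SE 0.203) for High versus Low. Because the libraries are bulk samples, more cells with Arg1 RNA and more Arg1 RNA per cell cannot be told apart.

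**Figure D1:**
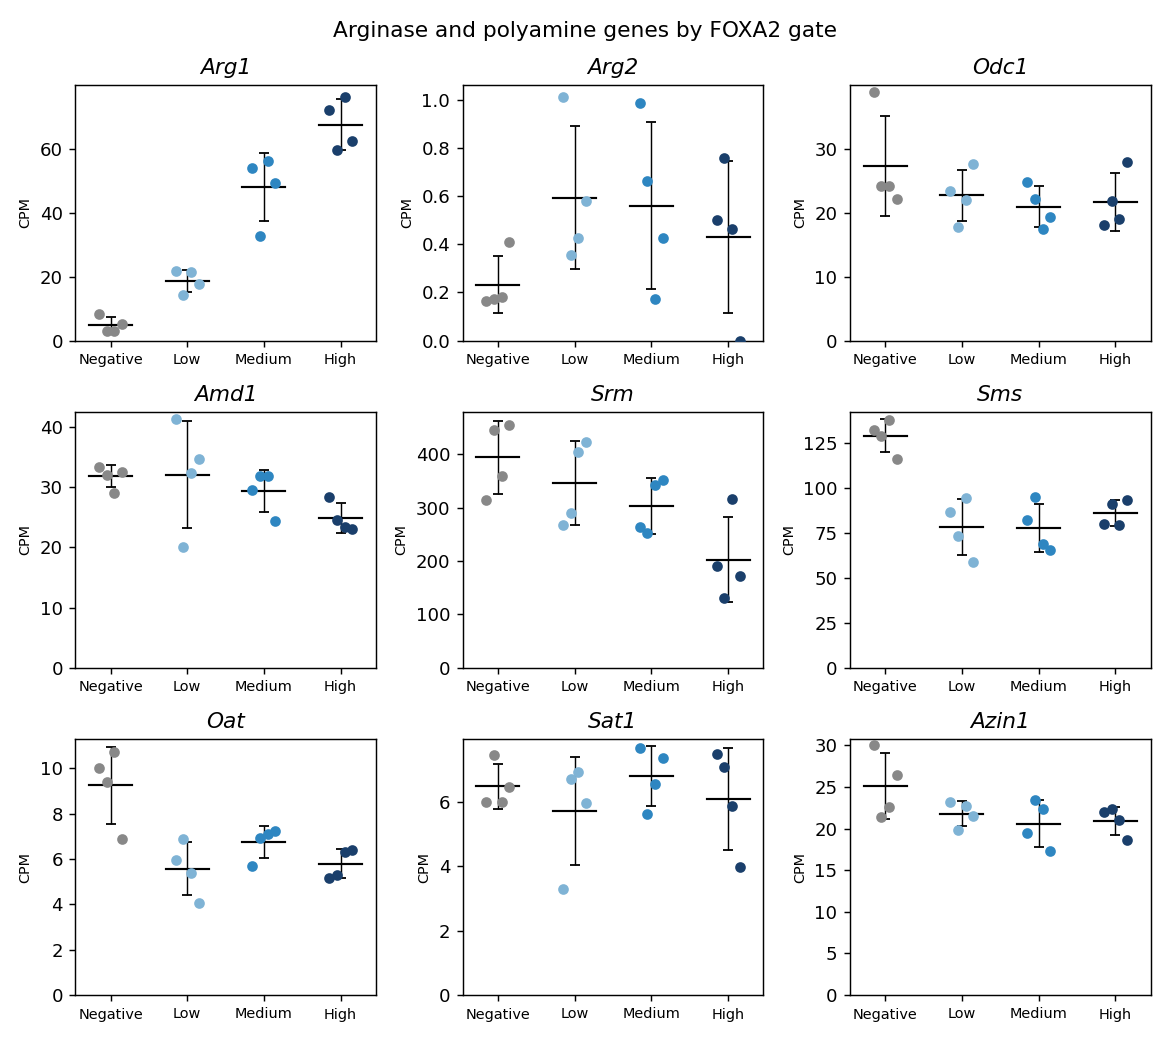
CPM of the 9 genes by gate, each panel from 0 on its own scale; points are the 4 libraries of a gate, lines the mean and bars the SD. Arg1 climbs from 4.9 to 67.6 CPM in mean, Srm declines to 202 CPM in High, and Sms drops between Negative (129 CPM) and Low (78.2 CPM) and is at 85.9 CPM in High.

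Arg1 relative to Foxa2 was lower in every High library than in every Low library. There were between 1.46 and 1.94 Arg1 counts per Foxa2 count in the Low libraries, between 0.547 and 1.46 in Medium and between 0.545 and 0.654 in High, a ratio within each library that does not depend on scaling. In Negative, where Foxa2 had only 73 counts over 4 libraries, the ratio ran from 0.586 to 4.64. The log2 steps of Foxa2 were 2.12 (SE 0.275), 2.11 (SE 0.211) and 1.13 (SE 0.192), against the 1.92, 1.35 and 0.50 of Arg1. Foxa2 defined the gates, so its steps are no finding.

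**Figure D2:**
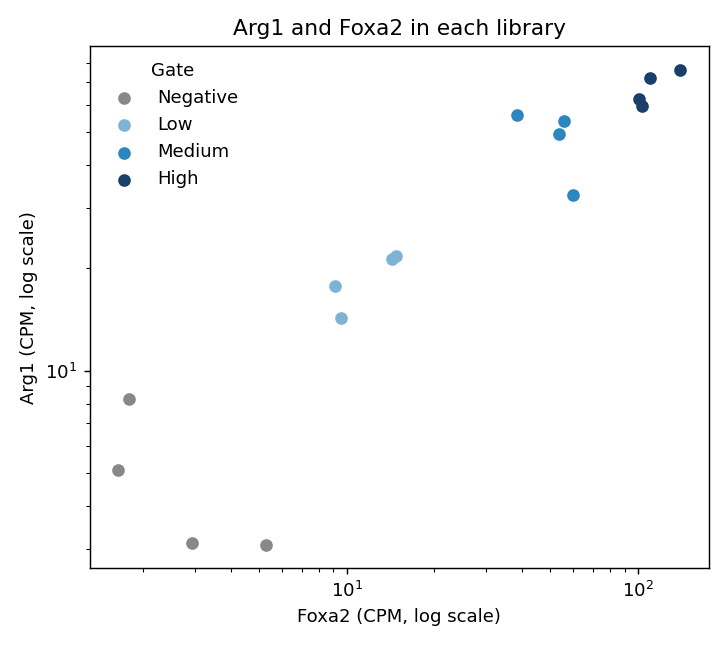
Arg1 against Foxa2 in each of the 16 libraries, both in CPM on log axes, coloured by gate. The High libraries lie farthest right, at 101 to 140 CPM of Foxa2, while their Arg1 (59.7 to 76.3 CPM) is close above the highest Medium library (56.2 CPM).

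The genes most like Arg1 over the 16 libraries, by Pearson correlation of log2(CPM + 1) among 6563 genes with at least 20 CPM in their highest gate, were Sox17 (r = 0.964), Tagln2 (0.964), Sp5 (0.963), Gsn (0.962) and Ntng1 (0.954). Spearman's rho for these 5 was between 0.915 and 0.962. Sox17, an endoderm and endothelial transcription factor, had a mean of 11.7 CPM in Negative and 134 in High, and Sp5, a WNT target, 10.2 and 93.6. Tagln2 and Gsn encode actin-binding proteins, at 243 and 7.51 CPM in Negative and 561 and 32.3 in High. The libraries share their gates, so these correlations describe a common order and are given without p-values.

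Cell types known for high arginase 1 are macrophages and hepatocytes, and their markers were read in the same libraries. Of 10 macrophage and myeloid markers, C1qa had 0 counts in all libraries, Lyz2 had 1 and Ptprc 2 (all in Negative) and Adgre1 had 4. Fcgr1 had 109 counts in total, Itgam 90, Mrc1 53 and Csf1r 12. Aif1 had 0 counts in Negative and in Low, 3 in Medium and 14 in High. Only Cd68 passed the filter, and it was lower in High (means of 9.21 CPM in Negative and 4.91 in High). The summed level of the list was 12.3 to 13.5 CPM in Negative, 3.04 to 10.1 in Low, 5.77 to 10.5 in Medium and 4.3 to 10.5 in High, and the part of such cells in the level of Arg1 was not tested. Of 10 liver and endoderm markers, the hepatocyte gene Alb had 3 counts in total and Hnf4a 8, but the summed level ran from 14.6 to 23.7 CPM in Negative and from 138 to 171 in High, most of it Sox17. Ttr had 1 count in Negative and 216 in High, Gata6 4 and 44 and Afp 2 and 29. Other genes of the list went the other way or stayed low: Gata4 had 117 counts in Negative and 43 in High (means of 3.97 and 2.13 CPM), Foxa3 48 and 29 (1.83 and 1.54 CPM), Hnf4a 2 and 0, Apoa1 12 and 15 and Apoa2 3 and 4. The part of endoderm-like cells in the level of Arg1 was not tested.

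Arg2 was at the edge of detection. It had 46 counts in all 16 libraries, with 1 to 4 in each Negative library, 2 to 8 in Low, 1 to 5 in Medium and 0 to 3 in High. The gates overlapped, and 3 counts, the limit that a count of 0 allows, were worth 0.307 to 0.913 CPM (counting error only), so no difference was detectable at this depth. Arg2 (chromosome 12, 79130777 to 79156301) also overlaps the end of Vti1b on the other strand, which had 10972 counts, and the strand setting of the counting is not given in the sources used here.

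Odc1, its regulator Azin1 and Amd1 did not follow the order of Arg1. Odc1 was at 38.9, 24.1, 24.2 and 22.1 CPM in Negative and at 18.0, 21.8, 19.0 and 28.0 in High, with 22.7 ± 4.01 in Low and 20.9 ± 3.2 in Medium (SD, n = 4). The gates overlapped, and Negative 1 stood above all other libraries. The log2 difference of High versus Negative was -0.35 (95% interval -0.73 to 0.03), and -0.13 without Negative 1. Within a library, Arg1 counts per Odc1 count went from between 0.128 and 0.231 in Negative to between 2.23 and 4.02 in High. Azin1, which frees ornithine decarboxylase from its inhibitor antizyme, was at 25.1 ± 3.99 CPM in Negative and 21.8 ± 1.52, 20.6 ± 2.78 and 20.9 ± 1.67 in Low, Medium and High (SD, n = 4). Its log2 difference of High versus Negative was -0.26 (95% interval -0.56 to 0.03). Amd1 was at 33.4, 32.1, 29.1 and 32.5 CPM in Negative and 28.4, 24.5, 23.4 and 23.1 in High, ranges that did not overlap. Its log2 difference of High versus Negative was -0.35 (95% interval -0.68 to -0.02). That interval takes a normal quantile and is somewhat narrow: edgeR's own test of Amd1 was not under 0.05, even before adjustment. In Low, Amd1 was at 32.1 ± 8.96 CPM with a highest value of 41.4 (SD, n = 4). Amd2, a near-identical copy of Amd1, had 186 counts against 2971 for Amd1, and reads common to both cannot be assigned with certainty.

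Spermidine synthase was lower in the High gate. Srm (chromosome 4, 148591503 to 148594993) was at 314, 445, 360 and 455 CPM in Negative, 267, 290, 404 and 423 in Low, 264, 252, 343 and 351 in Medium and 191, 131, 316 and 172 in High. Libraries 3 and 4 were above libraries 1 and 2 in the Low and Medium gates, and High 3 stood above the other High libraries, inside the range of Negative. The log2 difference of High versus Negative was -0.95 (SE 0.198), that of High versus Low -0.77 (SE 0.198) and that of High versus Medium -0.57 (SE 0.197), or -0.88 without High 3. The lowest values, in High 2 and High 4, were in the shallowest libraries; with every library thinned to 3268948 counts the difference of High versus Negative was -0.97.

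Spermine synthase differed between Negative and all other gates. Sms (X chromosome, 157443855 to 157492287) was at 132, 129, 138 and 116 CPM in Negative, 86.5, 73.1, 94.2 and 58.9 in Low, 82.3, 94.7, 68.6 and 65.7 in Medium and 79.8, 91.3, 79.4 and 93.1 in High. Every Negative library lay above every other library. The log2 difference from Negative was -0.72 (SE 0.135) in Low, -0.73 (SE 0.136) in Medium and -0.59 (SE 0.136) in High. Low, Medium and High overlapped, and High versus Low was 0.13 (95% interval -0.14 to 0.40). The Srm and Sms levels thus had different shapes: from Negative to Low the mean of Sms went from 129 to 78.2 CPM and that of Srm from 394 to 346, and from Medium to High that of Sms from 77.8 to 85.9 and that of Srm from 303 to 202.

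**Figure D3:**
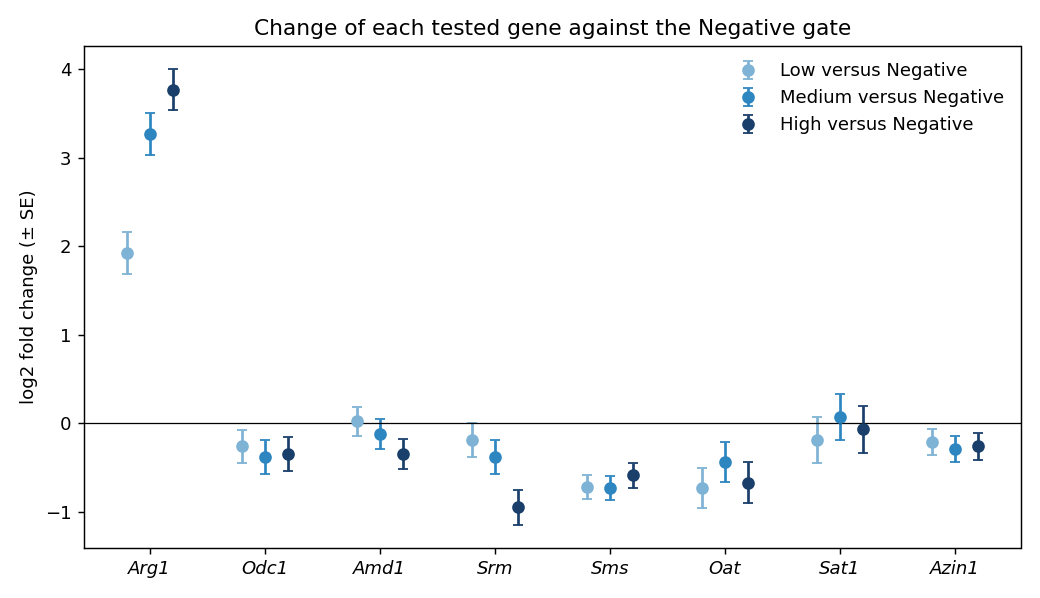
Log2 fold change against Negative (points, with SE bars) of the 8 tested genes in the Low, Medium and High gates. Arg1 stands at 1.92, 3.27 and 3.77; for Sms the 3 points lie together near -0.7, and for Srm only High is far below 0, at -0.95.

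Levels of cell type markers differed between the same gates. Summed over 8 pluripotency genes they were at 590 to 1020 CPM in Negative, 94.3 to 176 in Low, 59.6 to 79.5 in Medium and 46.0 to 80.7 in High, with Pou5f1 at 64 counts in Negative and 0 in High. Neural progenitor markers, 7 genes with Sox1 and Sox2 at 0, summed to 269 to 316 CPM in Negative, 263 to 337 in Low, 158 to 196 in Medium and 68.3 to 88.3 in High. Floor plate markers summed to 24.3 to 26.2 CPM in Negative and 165 to 204 in High, but the sum includes Foxa2, which set the gates (means of 2.91 and 113 CPM). Of the others in that list Spon1 had means of 9.01 and 28.4 CPM, Ntn1 11.8 and 28.2, Foxa1 0.3 and 9.23 and Lmx1a 1.3 and 0.628. The notochord markers, with Noto at 0, summed to 183 to 208 CPM in Negative and 374 to 491 in High. Most of that sum was Krt18 (means of 112 and 270 CPM) and Krt8 (69.9 and 99.8). Krt19 had means of 7.18 and 46.5 CPM, T 0.478 and 4.25 and Chrd 0.823 and 7.09. Nog went the other way, with 11 counts in Negative and 3 in High. Among the 5 genes most like Srm was Nes, also in the neural progenitor list (r = 0.891), together with Ly6h (0.892), Uchl3 (0.875), Zeb2 (0.87) and Elac2 (0.869). The part of these cell types in the levels of Sms and Srm was not tested.

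**Figure D4:**
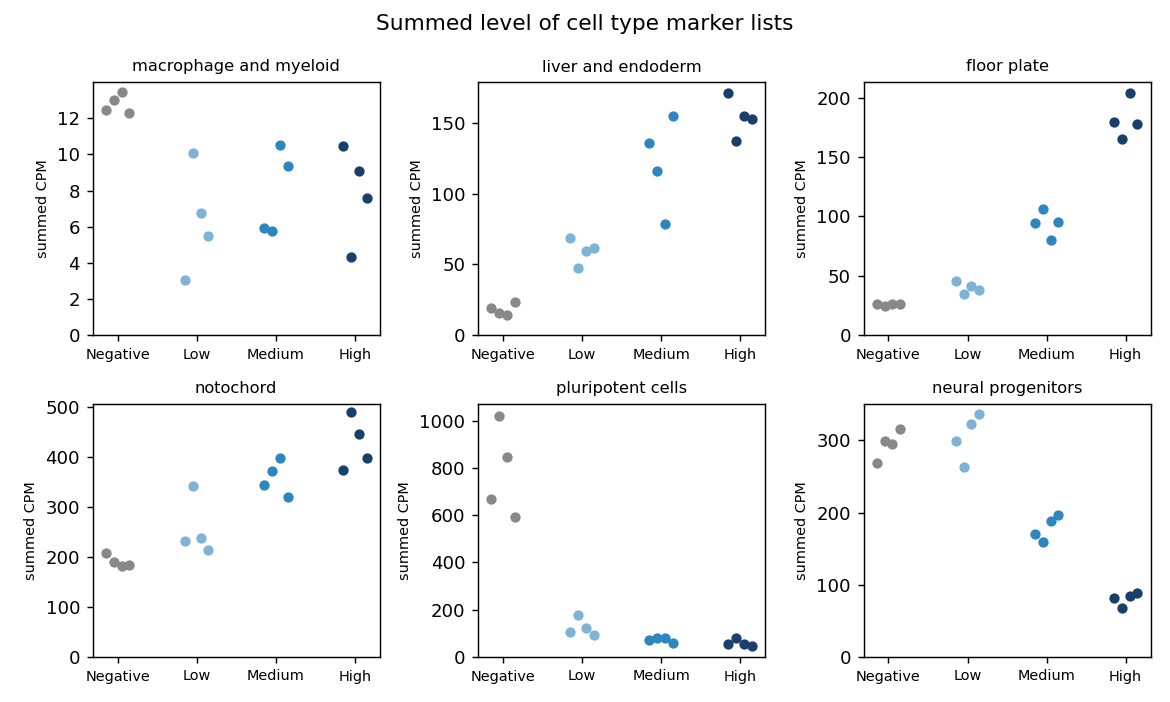
Summed CPM of 6 marker lists by gate, each panel from 0 on its own scale, with 1 point for each library. Pluripotency markers drop from 590 to 1020 CPM in Negative to 94.3 to 176 in Low, while neural progenitor markers drop mainly in Medium and High.

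Oat and Sat1, which draw ornithine and polyamines away, had at most 10.7 and 7.68 CPM in any library. Oat was at 10.0, 9.38, 10.7 and 6.86 CPM in Negative and 5.16, 5.31, 6.32 and 6.39 in High, ranges that did not overlap, with 4.06 to 6.89 in Low and 5.71 to 7.22 in Medium. The log2 difference of High versus Negative was -0.67 (SE 0.234), and -0.79 after thinning. GENCODE M21 places Oat inside a gene model of Fgfr2 on the same strand, so reads could be shared. Sat1 was at 6.48 ± 0.691, 5.72 ± 1.67, 6.8 ± 0.924 and 6.09 ± 1.58 CPM in Negative, Low, Medium and High (SD, n = 4). Its gates overlapped, and the 95% interval of the log2 difference of High versus Negative was -0.59 to 0.45.

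With a gene counted as called at an edgeR adjusted p under 0.05 over all genes, 3 of 8 tested members were called in High versus Negative (Arg1 higher, Srm and Sms lower), where 16.8% of all 13891 genes were called. In Medium versus Negative 2 of 8 tested were called (Arg1 and Sms), against 8.39% of all genes, and in Low versus Negative the same 2 genes, against 3.59%. Medium versus Low had 1 of 8 (Arg1, background 0.705%), High versus Medium 0 of 8 (background 0.835%) and High versus Low 2 of 8 (Arg1 and Srm, background 6.82%). In High versus Medium, 2 of 8, Arg1 and Srm, had an unadjusted edgeR p under 0.05. DESeq2 also gave 0 by adjusted p and 2 by unadjusted p there. Srm left the High versus Low count without Low 3 (-0.69), Low 4 (-0.67), High 1 (-0.74), High 2 (-0.61) or High 4 (-0.70). It entered that of High versus Medium without High 3 (-0.88) and with no filter on low counts (-0.59). With no such filter, Srm also entered the Medium versus Negative count (-0.36). Oat entered the High versus Negative count with RLE scaling (-0.67), after thinning, and without Negative 4 (-0.80), Low 4 (-0.67) or Medium 2 (-0.67). The ranges of High and Negative did not overlap for 4 of 8, Arg1, Amd1, Sms and Oat, against 21.6% of all genes. That number was 2 of 8 for Medium versus Negative (background 12.9%) and Low versus Negative (9.64%), and 1 of 8 for Medium versus Low (4.07%), High versus Medium (5.37%) and High versus Low (12.9%). By direction, the background was 0.482% higher and 0.223% lower in Medium versus Low, 0.317% and 0.518% in High versus Medium, and 3.75% and 3.07% in High versus Low. The median log2 difference of High versus Negative over the 8 was -0.35, beside 0.00 over all genes. Nothing is read from these shares, since the genes were chosen with the same contrasts known, and the comparisons with Negative share the Negative libraries.

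The other genes of the pathway, 62 genes in 7 functional lists of which 49 were tested, were listed by function, with earlier results of these data known. In High versus Negative 2 were higher and 10 lower, against 8.29% and 8.48% of all genes, and their median log2 difference was -0.12. In Medium versus Negative 2 were higher and 5 lower (4.2% and 4.18% of all genes), and in Low versus Negative 0 and 1 (1.36% and 2.23%). All adjusted p-values below come from edgeR's quasi-likelihood test. The count given for each list below is for High versus Negative, to be read beside the same 8.29% higher and 8.48% lower. The lists hold few tested genes, so 1 call in a list is no finding about that list. The part of the cell types above, pluripotent cells among them, in the levels of these genes was not tested.

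Transport of arginine and polyamines held the most calls: 5 of 9 tested genes were lower in High than in Negative and 0 higher. Of all genes, 8.48% were lower and 8.29% higher. Slc7a3, a carrier of arginine and lysine, fell from 26.5 ± 7.0 CPM in Negative to 8.93 ± 5.88 in Low, 5.9 ± 2.7 in Medium and 2.78 ± 0.998 in High (log2 fold change -3.23, SE 0.389, for High versus Negative; SD, n = 4). It was already lower in Low (log2 fold change -1.59, edgeR adjusted p = 0.00413), and the ranges of Negative and Low did not overlap. Slc7a1, the related carrier found in most tissues, fell from 8.6 ± 1.87 to 3.32 ± 1.08 CPM in High (adjusted p = 0.00877), and Slc3a2, the heavy chain of several amino acid carriers, from 240.0 ± 20.4 to 175 ± 8.62 (adjusted p = 0.004). Slc18b1, a vesicular polyamine transporter, fell from 18.5 to 23.1 CPM in Negative to 10.7 to 13.5 in High (adjusted p = 0.00515). Slc7a7 fell by 1.04 on the log2 scale (adjusted p = 0.0304). The call of Slc7a7 was lost after thinning (adjusted p = 0.0637) and without Negative 2 (0.105), High 1 (0.0884), High 3 (0.0784) or High 4 (0.0521).

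Among 6 tested regulators and catabolic enzymes of polyamines, 1 was higher and 0 lower. Smox, the oxidase that turns spermine back into spermidine, rose from 8.39 ± 2.76 CPM in Negative to 12.6 ± 1.41 in Low, 14.8 ± 2.54 in Medium and 18.1 ± 4.87 in High (log2 fold change 1.09, SE 0.227, adjusted p = 0.00128 for High versus Negative; SD, n = 4), and the 4 High libraries lay above the 4 Negative ones. Paox, an oxidase of acetylated polyamines, was at 17.3 ± 4.54 and 22.8 ± 4.82 CPM in Negative and High and Sat2 at 3.69 ± 0.639 and 5.16 ± 1.96, neither called. Azin2, a second antizyme inhibitor, was at 4.56 ± 1.45 CPM in Negative and 7.63 ± 1.15 in Low, also not called.

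The arginine supply, urea cycle and nitric oxide list had 1 of 8 tested genes higher and 0 lower. Ddah2, of the family that clears methylated arginines, rose from 141 ± 10.3 CPM in Negative to 176 ± 17.0 in Low, 195 ± 37.8 in Medium and 246 ± 19.0 in High (log2 fold change 0.80, SE 0.119, adjusted p = 2.3e-05 for High versus Negative; SD, n = 4). Ass1, which makes the precursor of arginine from citrulline, was at 36.3 ± 9.04 and 49.4 ± 9.24 CPM in Negative and High, Nos1 at 5.19 ± 1.79 and 2.77 ± 1.15, and Gatm at 3.91 ± 0.763 and 3.36 ± 1.28, none called. The liver urea cycle enzymes Otc and Cps1 were too low to be tested, with 2 and 8 counts over all libraries.

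In the proline and glutamate list, 2 of 9 tested genes were lower in High and 0 higher. Pycr1, a proline-forming reductase, fell from 24.8 ± 3.78 to 16.0 ± 2.16 CPM (adjusted p = 0.0195; SD, n = 4). The call of Pycr1 was lost without Negative 2 (adjusted p = 0.0699), High 1 (0.053) or High 4 (0.0638). The proline-degrading enzymes Prodh and Aldh4a1 were at 40.7 ± 3.47 and 27.0 ± 3.22 CPM in Negative and 31.9 ± 6.44 and 34.9 ± 2.48 in High, neither called. In the methionine list 0 of 9 tested genes were called by edgeR in High versus Negative (2 at an unadjusted p under 0.05), and Mat2a, which makes S-adenosylmethionine, was at 362 ± 38.3 and 322 ± 33.4 CPM.

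Spermidine also donates the side chain of hypusine, the modified residue of the translation factor eIF5A. Both enzymes of this modification were lower in High, 2 of 4 tested genes with 0 higher. Dhps, the first, fell from 126 ± 5.49 to 93.8 ± 7.18 CPM (adjusted p = 0.0174) and was at 88.5 ± 10.4 in Medium (adjusted p = 0.00809 for Medium versus Negative; SD, n = 4). Dohh, the second, fell from 353 ± 16.0 to 286 ± 23.0 CPM (adjusted p = 0.0266). The call of Dhps in High was lost without Negative 4 (adjusted p = 0.0514), High 1 (0.0645) or High 2 (0.0523). That of Dohh was lost with no filter on low counts (adjusted p = 0.0865) and without Negative 1 (0.0571), Negative 4 (0.0833), High 1 (0.0513), High 2 (0.0815) or High 4 (0.0842). Eif5a itself was at 3490 ± 241 and 3140 ± 244 CPM and was not called.

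Of the 4 MYC family genes, whose proteins are known to bind E-boxes and to drive Odc1 and Srm in growing cells, 1 was lower in High and 0 higher. Mycl went from 24.4 ± 4.33 CPM in Negative to 24.8 ± 3.23 in Low, 17.6 ± 4.47 in Medium and 14.2 ± 1.57 in High (log2 fold change -0.77, SE 0.183, adjusted p = 0.00419 for High versus Negative; SD, n = 4). Mycn was at 203 ± 15.9 CPM in Negative and 172 ± 6.87 in High and Myc at 6.57 ± 1.99 and 4.71 ± 2.09, neither called.

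**Figure D5:**
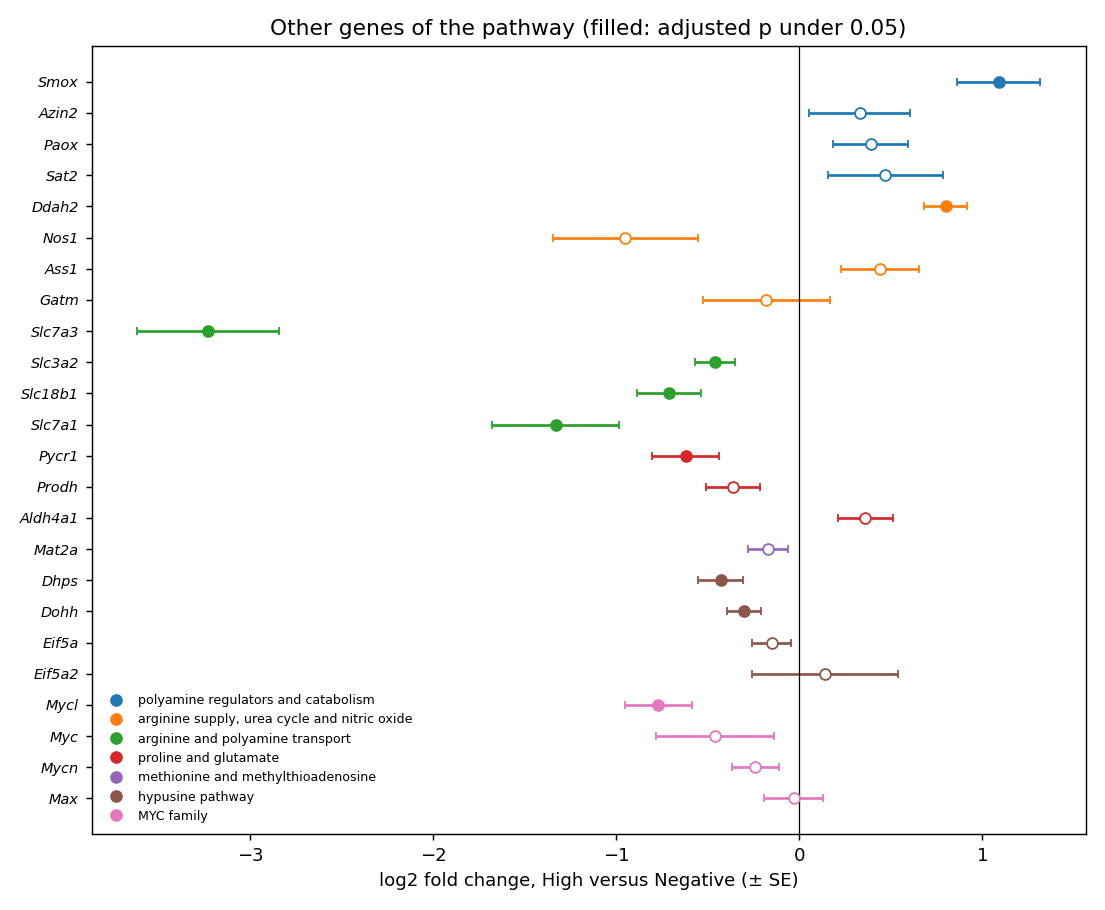
Log2 fold change of High versus Negative (points, with SE bars) for the genes named from the 7 pathway lists, coloured by list; filled points had an adjusted p under 0.05. Slc7a3 lies lowest at -3.23, and Smox (1.09) and Ddah2 (0.80) are the filled points above 0.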

How the data were processed

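RNA of 16 libraries was measured by BRB-seq, a bulk 3′ RNA-seq method with early barcoding. The authors deposited raw counts for 35976 genes; GRCm38, STARsolo 2.7.9a, cutadapt 1.18 and DESeq2 1.42.0 appear in the submitters' processing notes. For annotation, strand setting and collapsing of molecular identifiers nothing is stated in the sources used.

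Column names gave the samples. edgeR 4.0.16 in R 4.3.3 kept 13891 genes (filterByExpr) and scaled libraries by TMM. A quasi-likelihood model of the 4 gates was fitted to all 16 libraries, and all 6 pairs of gates were compared, with Benjamini-Hochberg adjusted p over all genes; genes under 0.05 are "called". CPM divides counts by the scaled library size. SE is the log2 fold change over the square root of F, and 95% intervals take the normal quantile of the SE. These intervals are therefore somewhat narrower than the quasi-likelihood test implies. Log2 correlations used a pseudocount of 1. One count was worth 0.102 to 0.304 CPM. The smallest chi-square per degree of freedom between libraries of a gate was 4.49, so none was counted as a duplicate. Tested on simulated data, for High versus Negative over 13891 genes, the test called 69 of 100 genes with a 2-fold change and 93 of 100 with a 4-fold one, with 8 false calls among 13691. The simulated counts were drawn independently from the fitted spread, with no shared deviation of same-numbered libraries. These rates therefore need not hold for the real libraries.

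The members and lists were chosen with earlier results of these data known. Named were all members, up to 4 genes of each pathway list by smallest p against Negative (the most abundant gene where a list had no call) and the 5 genes most like Arg1, Odc1 and Srm; where the text singles out others, they were chosen after their values were seen. One gene that the rule names is not reported here. Promoter windows are RefSeq's, trimmed at GENCODE M21 exons. Alternatives were thinning to equal depth, a replicate block, DESeq2 1.42.0, RLE scaling, no low-count filter, leaving out each library, fitting only the 2 gates compared, and leaving out Low 1 with Medium 2, which stood apart in the earlier results.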

Additional observations from a re-analysis of the deposited data

Results flagged for a closer look

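Odc1 in Negative 1 was at 38.9 CPM, while the other 3 Negative libraries were at 22.1 to 24.2 CPM, a gap of 0.875 of the gate's range, past Dixon's 95% limit for 4 libraries. Arg2 in Negative 4 was at 0.41 CPM and the others at 0.162 to 0.182 CPM (0.919 of the range), where the values are 4 counts and 1 count each. These were 2 of 36 gene and gate groups examined, and chance flags about 1 in 20.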

How the results depend on the processing

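Arg1 kept its direction and its side of the threshold in all 6 comparisons under every alternative run, with a log2 fold change of High versus Negative from 3.58 after thinning to 4.10 without Negative 1. Sms did so in its 3 comparisons with Negative. Both genes were chosen with these contrasts known, so this describes the fits and adds no support for the differences. With no filter on low counts, which tests 25725 genes, the calls rose to 199 in Medium versus Low (main 98). In High versus Medium they rose to 248 (main 116). Members called rose to 1 in High versus Medium and to 3 in Medium versus Negative (main 2), with Srm added in both. Pathway genes called rose to 1 in High versus Medium and to 3 in Low versus Negative. Fitting only the 2 gates compared gave 46 genes in Medium versus Low, 4 pathway genes in Medium versus Negative and 2 in Low versus Negative. Without Low 1 and Medium 2 together, 287 genes and 1 pathway gene were called in High versus Medium.

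Leaving out 1 library gave 54 to 107 genes in Medium versus Low and 65 to 216 in High versus Medium, the highest without Medium 2. Members called then ran from 0 to 1 in High versus Medium and from 1 to 3 in High versus Low. Pathway genes called ran from 4 to 7 in Medium versus Negative, from 1 to 3 in Low versus Negative, from 0 to 1 in High versus Medium, from 2 to 5 in High versus Low and from 8 to 12 in High versus Negative. Apart from the changed number of genes or libraries, the cause was not tested. The replicate block raised the pathway genes called in Low versus Negative from 1 to 2 and moved no other count by over 1.5 times. The sample titles repeat the library numbers in every gate, and the main fit took no account of them. Same-numbered libraries of different gates deviated together in part. Their 24 correlations ran from -0.0981 to 0.248 with a median of 0.0354, and 7 were over 0.1. The 72 correlations between different numbers ran from -0.231 to 0.321 with a median of -0.0114. Of 16 libraries, 11 correlated best with one of their own number, so a pairing by number cannot be set aside. Depth limits Arg2, Amd2 and the untested pathway genes.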

Other observations

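The genes most like Odc1 rested in part on Negative 1. Over 16 libraries they were Tomm34 (r = 0.808), Npm1 (0.756), Cars (0.754), Sqle (0.743) and Meis2 (0.736), and without Negative 1 their r was 0.669, 0.668, 0.383, 0.623 and 0.341. Cars, a cysteinyl-tRNA synthetase, was at 131 CPM in Negative 1 and 50.9 or less elsewhere. Meis2, a homeobox gene, reached 33900 CPM in Negative 1 but no more than 862 in any of the remaining 15 libraries, with a Spearman rho to Odc1 of 0.391.

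Within gates, after each gate's mean was taken off, Srm and Sms deviated in opposite directions (r = -0.52 over 16 libraries that share gates and depth) and Amd1 and Azin1 together (r = 0.56); these are descriptions, with no test.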
